A study of Mus musculus with 6 samples.

Results

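The genes of the cytosolic ribosomal proteins were described in RNA-Seq of sorted mouse retinal cells after optic nerve crush (ONC). Members were the protein-coding genes with a symbol made of Rpl or Rps and a number, with an optional letter or an l suffix, together with Rplp0, Rplp1 and Rplp2, and without the Rps6k kinases. The rule found 78 of the 32371 genes in the count table, 48 named for the large subunit and 30 for the small subunit. The rule itself uses names only. A filter on low counts left 76 of the 78 for testing, and Rpl36al and Rpl39l did not pass it. Rpl3l and Rpl10l also fit the name rule in the annotation and were not analysed here.

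Adult C57BL/6J mice were injected in the vitreous with AAV2-GFP as control (n = 3 libraries) or with AAV2-Ezh2-Y726D (n = 3 libraries), and the optic nerve was crushed 2 weeks later in both groups. Ezh2-Y726D is a form of the histone H3K27 methyltransferase Ezh2 with a mutation that abolishes its catalytic activity. Cells were collected 3 days after ONC in all 6 cases by a sort on CD90.2 (Thy1, a surface protein of ganglion cells), and the promoter of the AAV2 vectors and the number of mice behind a library are not given in the sources used here. The p-values therefore measure the spread between libraries, which may be technical.

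A ribosome reads mRNA on its small subunit and joins amino acids on its large subunit, and each subunit is built from rRNA and a fixed set of proteins. Most of these proteins are present once per ribosome, and their mRNAs are among the most abundant in many cells. They usually begin with a C followed by a run of pyrimidines, the 5′ terminal oligopyrimidine (TOP) motif, through which the kinase mTOR and the RNA-binding protein Larp1 regulate their translation. In neurons, new ribosomal protein and local translation have been studied as part of axon growth and repair.

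Sequences around the annotated starts are shown because pyrimidine runs there were more frequent in the members than in all promoters, although not present in every member. From RefSeq, stretches from 50 bases before to 30 bases after the annotated start (80 bases each, build GRCm38.p6, 5′ to 3′ on the gene's strand) are given for the members with the largest and smallest decreases among those whose exons overlap other genes by at most 10% and whose annotated start lies within 100 bases of the GENCODE gene start, and for Rps27, the partner of Rps27l. Capitals mark every run of at least 8 pyrimidines within the 20 bases before and 30 bases after the start, and the motif CCGGAAG on either strand, which is a core sequence for ETS-family factors.
Rps27l (chr9:66946036-66946115, plus strand): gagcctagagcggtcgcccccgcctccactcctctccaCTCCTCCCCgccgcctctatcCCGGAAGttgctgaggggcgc
Rplp0 (chr5:115559417-115559496, plus strand): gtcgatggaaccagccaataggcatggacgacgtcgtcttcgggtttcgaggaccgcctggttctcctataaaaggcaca
Rps9 (chr7:3703991-3704070, plus strand): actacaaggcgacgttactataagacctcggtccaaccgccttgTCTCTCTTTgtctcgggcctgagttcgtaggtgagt
Rps16 (chr7:28350639-28350718, plus strand): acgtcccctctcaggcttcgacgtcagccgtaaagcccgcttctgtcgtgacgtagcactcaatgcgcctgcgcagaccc
Rpl9 (chr5:65391402-65391481, minus strand): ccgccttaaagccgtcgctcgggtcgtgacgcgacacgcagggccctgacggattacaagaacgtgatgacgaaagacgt
Rps15a (chr7:118116118-118116197, minus strand): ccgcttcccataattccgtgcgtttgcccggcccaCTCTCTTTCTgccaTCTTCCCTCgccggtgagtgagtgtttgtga
Rps6 (chr4:86857338-86857417, minus strand): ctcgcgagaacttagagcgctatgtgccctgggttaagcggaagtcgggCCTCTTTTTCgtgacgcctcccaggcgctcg
Rps27 (chr3:90213619-90213698, minus strand): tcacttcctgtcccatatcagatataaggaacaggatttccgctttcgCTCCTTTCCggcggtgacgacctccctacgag

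Of the 78 members, 58 had an entry in the promoter table, which holds 27025 genes. A pyrimidine run of at least 8 letters lay in that 50-base window in 51.7% of the members matched and in 18.8% of all promoters. CCGGAAG on either strand was found within 250 bases before to 50 after the start in 39.7% of members and 9.1% of all promoters. These are matches of letters only, and the annotated start was within 30 bases of the GENCODE gene start for 30 of the 58.

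After TMM scaling, transcripts of the ribosomal proteins were lower with Ezh2-Y726D as a group, by about 14%, whereas with scaling to library totals that include rRNA none of them was called and the members' median was positive. Under TMM, 68 of the 76 members tested fell at adjusted P under 0.05 (13.6% of the 18138 genes tested fell), none rose, although 13.9% of all genes did (27.5% of all genes were called in either direction), and 8 were not called. The log2 fold change was below 0 for 75 of 76 members, against 49.5% of all genes. Its median was -0.21 (interquartile range -0.26 to -0.18), against 0.00 over all genes. Called members fell by 7.66% to 27.5%. No member changed more than 1.5-fold, whereas 8.02% of all genes were called beyond that size, 5.5% of all genes in the lower direction. The effect was thus shared by many genes and small in each.

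**Figure D1:**
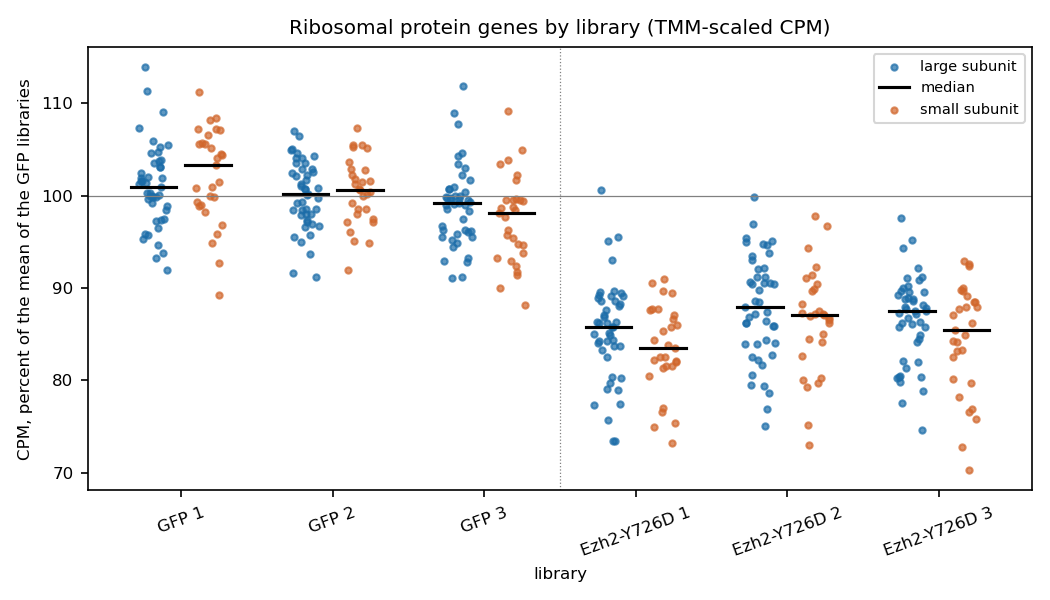
Each point is 1 ribosomal protein gene in 1 library, as its CPM in percent of its mean over the GFP libraries (TMM scaling, 74 members with a GFP mean over 10 CPM), with large-subunit genes in blue, small-subunit genes in orange and bars at the medians. With this scaling the Ezh2-Y726D libraries run from 70.3 to 101% and the GFP libraries from 88.2 to 114%; with library totals the direction of the difference reverses.

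The sum over the members was 9846, 9796 and 9582 CPM in the GFP libraries. In the Ezh2-Y726D libraries it was 8213, 8500 and 8332 CPM. The groups did not overlap, and the difference of -14.3% (9741 ± 140.2 against 8348 ± 144.1 CPM, SD, n = 3 each) was several times the spread within a group. An exact two-sided permutation test gave P = 0.1, which is the smallest value that 3 against 3 libraries allow. As a share of all counts without the rRNA gene CT010467.1, the members took up 1.34, 1.32 and 1.30% in GFP and 1.10, 1.14 and 1.12% in Ezh2-Y726D (exact permutation P = 0.1). With that gene in the denominator the order turned, from 0.841% ± 0.359 in GFP to 1.02% ± 0.0619 in Ezh2-Y726D (exact permutation P = 0.4), since CT010467.1 alone held 6.59, 50.9 and 52.2% of the GFP counts and 2.55, 16.1 and 7.39% of the Ezh2-Y726D counts.

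The libraries held 9333244 to 23782520 counts, and 4460732 to 22024582 without CT010467.1, the fewest in GFP replicates 2 and 3. Without these 2 libraries the members' median was -0.24, and 60 of 77 members were called, with the 1 GFP library left assumed to vary like the Ezh2-Y726D libraries. Ezh2 itself was at 22.7, 23.9 and 26.4 CPM with AAV2-GFP and at 65.3, 65.6 and 65.2 CPM with AAV2-Ezh2-Y726D, as the labels say. Markers of retinal ganglion cells summed to 579 to 604 CPM in GFP and 547 to 595 CPM in Ezh2-Y726D. Rod markers summed to 5932 to 6661 CPM over the 6 libraries, so the RNA was not from ganglion cells alone. Several marker lists moved with the groups. Of the phagocyte genes 11 of 12 fell and Lpl rose (sum 2048 to 2150 CPM in GFP, 1046 to 1104 CPM in Ezh2-Y726D), of the microglial genes 11 of 13 while P2ry12 rose (1111 to 1236 and 680 to 804 CPM), of the T cell genes 9 of 9 (137 to 143 and 79.5 to 87.7 CPM), of the cone genes 8 of 8 (450 to 471 and 288 to 303 CPM) and of the genes of dividing cells 10 of 10 (171 to 179 and 106 to 111 CPM), while 7 of 8 amacrine genes rose (990 to 1065 and 1542 to 1602 CPM). In the other lists, 9 of 10 bipolar genes fell and Prkca rose, 5 of 6 pericyte genes and 3 of 7 endothelial genes fell, 4 of 9 Müller glia genes fell and 2 rose, and 1 of 10 rod and 1 of 12 ganglion cell genes fell while 3 and 2 rose. Of the 2 erythroid genes tested, Hba-a1 rose (sum of the list 2.71 to 5.47 CPM in GFP and 5.64 to 8.54 CPM in Ezh2-Y726D). With library totals the median log2 fold changes of the phagocyte, microglial, T cell, cone and dividing cell genes stayed below 0 (-0.43, -0.25, -0.25, -0.17 and -0.40), and those of the bipolar, pericyte, endothelial, Müller glia and ganglion cell genes were above 0. No gene of any of these lists was at 0 in every library. Their part in the decrease of ribosomal protein transcripts was not tested, and fewer cells of a type cannot be told apart from less RNA per cell.

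The 5 largest decreases were those of Rps27l, Rps2, Rplp0, Rps9 and Rpl12. Rps27l, a close copy of Rps27 that is known as a target of p53, was at 14.0, 12.9 and 11.8 CPM in GFP and 9.66, 10.3 and 9.05 CPM in Ezh2-Y726D. All Ezh2-Y726D values were below all GFP values (log2 fold change -0.47, SE 0.0969, adjusted P = 0.000438). Rps27l had 398, 100 and 71 counts in the GFP libraries. Without GFP replicate 1 its log2 fold change was -0.365 (adjusted P = 0.0485), a smaller decrease than that of Rplp0 (-0.399). Rps2, at the entrance of the mRNA channel of the small subunit, was at 199, 181 and 177 CPM in GFP and 140, 140 and 135 CPM in Ezh2-Y726D (log2 fold change -0.44, SE 0.0429, adjusted P = 4.00e-09). The lowest GFP library was well above the highest Ezh2-Y726D library. Rps9, its neighbour at that entrance, was at 232, 231 and 228 CPM in GFP and 176, 168 and 176 CPM in Ezh2-Y726D (log2 fold change -0.41, SE 0.0389, adjusted P = 2.61e-09). Rps3, the other protein there, fell less, by 0.17 on the log2 scale (SE 0.0409, adjusted P = 0.00195), with 251 to 272 CPM in GFP and 226 to 235 CPM in Ezh2-Y726D. All of these genes had a positive log2 fold change with scaling to library totals, as did every member tested.

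The P stalk of the large subunit, which recruits and activates the translation factors that hydrolyse GTP, was lower in all of its parts under TMM, with the call of Rplp1 lost under the length correction. Rplp0, the base protein of the stalk (chr5:115559467-115563727, plus strand), was at 299.8, 299.8 and 279 CPM in GFP and 222, 219.7 and 218 CPM in Ezh2-Y726D. The spread was small in both groups, and the log2 fold change was -0.42 (SE 0.0399, adjusted P = 2.87e-09). Rpl12, which lies beside Rplp0 at the base, was at 139, 134 and 138 CPM in GFP and 101, 108 and 106 CPM in Ezh2-Y726D (log2 fold change -0.39, SE 0.0420, adjusted P = 2.45e-08). Rplp2, one of the acidic proteins that bind Rplp0 as dimers, was at 106, 111 and 122 CPM in GFP and 82.9, 89.6 and 88.9 CPM in Ezh2-Y726D (log2 fold change -0.36). Its dimer partner Rplp1 was at 231, 224 and 216 CPM in GFP and 197, 194 and 188 CPM in Ezh2-Y726D (log2 fold change -0.22, SE 0.0399, adjusted P = 0.000103). With each library's trend with gene length removed, the log2 fold change of Rplp1 was -0.10 (adjusted P = 0.0727). The groups did not overlap for any of these 4 genes.

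**Figure D2:**
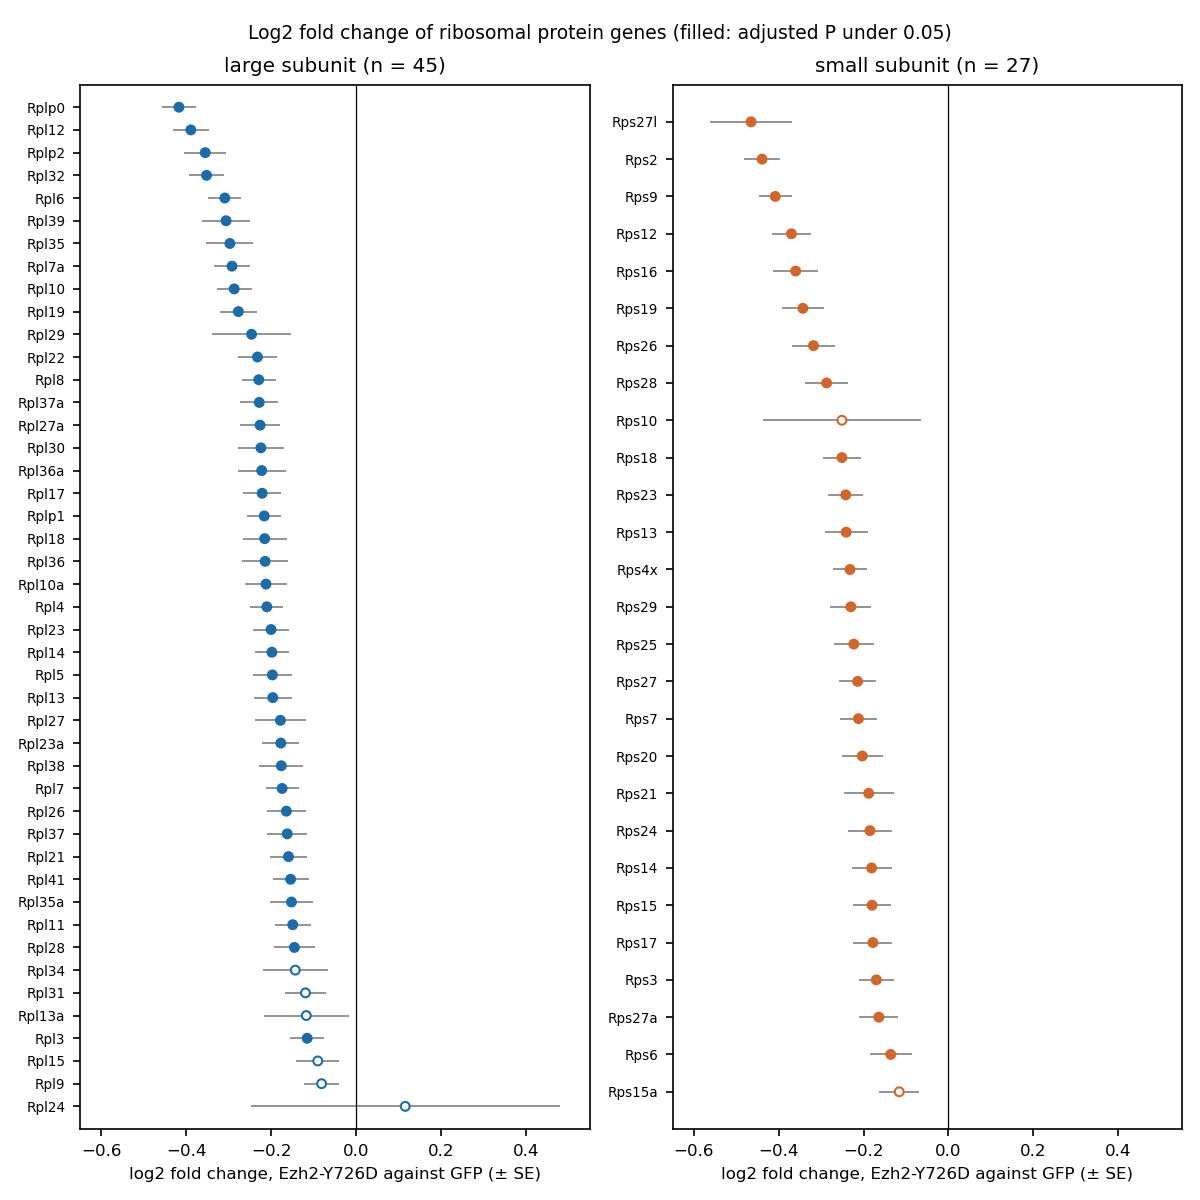
Log2 fold change of 72 of the 76 members tested, Ezh2-Y726D against GFP under TMM, with its SE (45 large-subunit genes on the left, 27 small-subunit genes on the right, filled points at adjusted P under 0.05). All points but Rpl24 lie below 0, between -0.47 and -0.08; with library totals they move above 0.

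The groups of GFP and Ezh2-Y726D values did not overlap for 64 of the 76 members, all lower in Ezh2-Y726D, against 18.9% of all genes tested. By subunit, 40 of 46 large-subunit genes fell (median -0.21) and 28 of 30 small-subunit genes (median -0.23). The ratio of summed large- to small-subunit CPM was 1.53 ± 0.00997 in GFP and 1.56 ± 0.00629 in Ezh2-Y726D (SD, n = 3 each, exact permutation P = 0.1, the smallest possible), a change of 1.46%. The balance between subunits thus moved far less than their sum.

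Around the exit tunnel of the large subunit, through which the nascent chain leaves, 7 of the 8 genes listed (Rpl4, Rpl17, Rpl19, Rpl23a, Rpl26, Rpl31, Rpl35 and Rpl39) fell, with a median of -0.22. The call of Rpl26 was lost with the length correction (adjusted P = 0.0809) and without GFP replicate 2 or Ezh2-Y726D replicate 1. That of Rpl23a was also lost with the length correction (adjusted P = 0.137), and without GFP replicate 1 (adjusted P = 0.0774). Rpl39, a short protein of the tunnel wall, was at 58.3, 53.1 and 63.5 CPM in GFP and 46.1, 47.0 and 47.8 CPM in Ezh2-Y726D (log2 fold change -0.31, SE 0.0569, adjusted P = 0.000113). Rpl31 was the exception, with 114 to 121 CPM in GFP, 102 to 117 CPM in Ezh2-Y726D and overlapping groups (log2 fold change -0.12, adjusted P = 0.0707). Next to the peptidyl transferase centre, Rpl10 fell by 0.29 and Rpl8 by 0.23, and Rpl3 fell by 0.12 (adjusted P = 0.0322), the smallest decrease called, which was lost in 3 of the 6 fits without 1 library, with adjusted P up to 0.180 without GFP replicate 1. Rpl5 and Rpl11, which form a particle with 5S rRNA that can bind Mdm2 and so stabilise p53, fell by 0.20 and 0.15 (adjusted P = 0.00124 and 0.00796). The log2 fold change of Rpl5 was -0.11 without GFP replicates 2 and 3.

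On the small subunit, the 5 genes listed for the decoding site and platform (Rps14, Rps15, Rps23, Rps26 and Rps28) all fell, by 0.18 to 0.32. The call of Rps14 was lost without GFP replicate 1 (-0.12, adjusted P = 0.115), and that of Rps15 with the length correction (-0.08, adjusted P = 0.252). Rps26, which contacts mRNA upstream of the start codon, was at 72.9, 75.1 and 72.3 CPM in GFP and 56.6, 61.8 and 58.5 CPM in Ezh2-Y726D. The separation was clear, with an adjusted P of 1.17e-05. Rps12, in the beak of the subunit, was at 158, 179 and 174 CPM in GFP and 125, 136 and 131 CPM in Ezh2-Y726D (log2 fold change -0.37, SE 0.0462, adjusted P = 2.98e-07). Rps27a, which is made as a fusion with ubiquitin, fell by 0.16 (adjusted P = 0.00736, and 0.0569 without Ezh2-Y726D replicate 1). Rps19, the protein most often affected in Diamond-Blackfan anaemia, fell by 0.34 (adjusted P = 2.68e-06).

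Rps6, the protein whose phosphorylation by S6 kinase is widely used as a readout of mTOR activity, was among the members with small changes. It was at 97.2, 96.7 and 86.3 CPM in GFP and 81.4, 90.3 and 86.3 CPM in Ezh2-Y726D. The groups overlapped, and the log2 fold change of -0.14 (SE 0.0499) was just called (adjusted P = 0.0429). The call was made under only 10 of 20 alternatives and in 2 of the 6 fits without 1 library, and was lost with DESeq2 (adjusted P = 0.155) and the length correction (-0.09, adjusted P = 0.221). The counts bear on its mRNA, and phosphorylation was not measured here.

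A total of 8 members were not called. Rps10, Rpl34, Rpl31, Rpl13a, Rps15a, Rpl15 and Rpl9 had log2 fold changes between -0.25 and -0.08 with adjusted P of 0.0688 to 0.442, and Rpl24 had 0.12 (SE 0.364, adjusted P = 0.87). Rpl9 was at 176, 172 and 157 CPM in GFP and 160.4, 159.7 and 160.0 CPM in Ezh2-Y726D, within the GFP range. Rps15a was at 151, 166 and 155 CPM in GFP and 135, 154 and 146 CPM in Ezh2-Y726D, so that its groups overlapped in 1 library each. Some of these values rested on single libraries. Leaving out 1 library at a time, Rps15a ran from -0.16 to -0.07 and was called in 2 of 6 fits. Rpl9 ran from -0.12 to -0.04, Rpl15 from -0.14 to 0.00 and Rpl31 from -0.18 to -0.08, and each was called in 1. Rps10 ran from -0.34 to -0.15, Rpl13a from -0.16 to -0.07 and Rpl34 from -0.19 to 0.02, and each was called in none. Rpl9 and Rps15a are abundant transcripts, whereas Rpl24 had only 0.387 to 0.842 CPM in GFP and 0.490 to 1.05 CPM in Ezh2-Y726D.

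Levels of single genes were compared with each other per kilobase of the principal transcript. They depend on the annotated length, which is long for some members. For Rps15a it is 5179 bases, against a median of 834 bases, and its level was 30.4 CPM per kb in GFP. In GFP they were highest for Rplp1 (448 CPM per kb), Rps27 (357 CPM per kb) and Rps15 (323 CPM per kb), and 54 of the 78 members were above 100 CPM per kb. The median over the members tested was 141 CPM per kb, against 5.56 over all genes tested. Rps27 was at 130, 121 and 118 CPM in GFP and 108, 111 and 104 CPM in Ezh2-Y726D (log2 fold change -0.21, adjusted P = 0.000428), with no overlap. Rps15 fell by 0.18 (adjusted P = 0.00264, but -0.08 and 0.252 with the length correction), although its lowest GFP library (151 CPM) was under its highest Ezh2-Y726D library (152 CPM). The lowest levels were those of Rpl24 (0.932 CPM per kb), Rpl36al (0.764 CPM per kb) and Rpl39l (0.0436 CPM per kb).

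**Figure D3:**
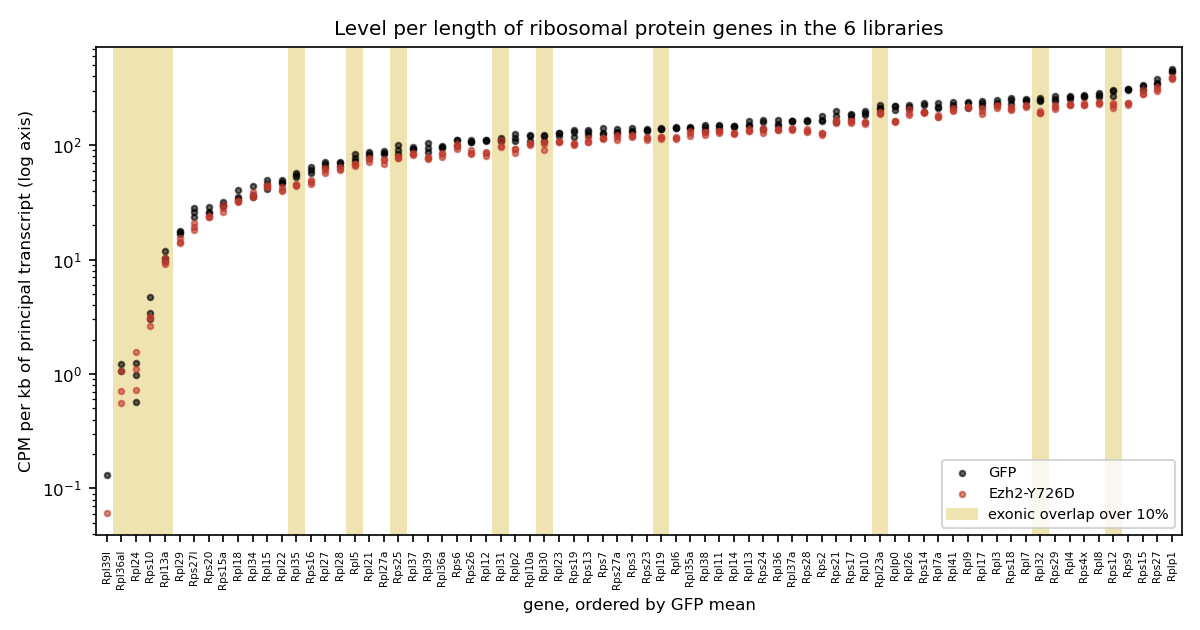
Level of 74 of the 78 members in CPM per kb of its principal transcript on a log axis, ordered by the GFP mean, with GFP libraries in black and Ezh2-Y726D libraries in red (libraries at 0 are not drawn), and shading where over 10% of the exonic bases are shared with another gene. Levels run from 0.0436 CPM per kb for Rpl39l to 448 for Rplp1, and most members sit above 100.

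Some members share exons with other genes. Over 10% of exonic bases are shared with another gene for 16 members. Of these, Rpl24 (47% shared, with Gm28037 as the main partner), Rps10 (28.7%, RPS10-NUDT3), Rpl13a (35.4%, Gm45713) and Rpl36al (24.5%, Gm49383) share exons with another gene model on the same strand, and these 4 were at or under 10.6 CPM per kb in GFP. Rpl39l and Rpl29 (17.3 CPM per kb) were also low and share no exon, and the part of overlap in the low levels was not tested. How reads in shared exons were counted is not given in the sources used here, so the levels of these 4 genes are uncertain. The others, among them Rpl35, Rpl23a, Rpl5, Rpl31, Rps25, Rpl30, Rpl32, Rps12 and Rpl19, have small RNA genes or genes on the other strand as main partners, and the log2 fold changes of those named were -0.37 to -0.12. Rpl32 fell by 0.35, Rpl35 by 0.30, Rpl19 by 0.28 and Rpl30, Rps25 and Rpl23a by 0.22, 0.22 and 0.18. The log2 fold change of Rpl30 was -0.125 without GFP replicates 2 and 3. The call of Rpl23a was lost with the length correction (-0.09, adjusted P = 0.137) and without GFP replicate 1 (adjusted P = 0.0774). Among the 40 members tested without any overlap, 37 fell.

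Some members are copies of others. Rpl39l, a copy of Rpl39 known from the testis, had 3, 0 and 0 reads in GFP and 0, 1 and 0 in Ezh2-Y726D, while Rpl39 had 383 to 1661 reads per library. Rpl36al, a copy of Rpl36a, had 16, 5 and 0 reads in GFP and 15, 6 and 11 in Ezh2-Y726D. Neither was tested, as both failed the filter on low counts. Rpl36a was at 46.6, 45.5 and 47.3 CPM in GFP and 40.1, 38.2 and 41.0 CPM in Ezh2-Y726D and fell by 0.22 on the log2 scale (adjusted P = 0.00320). Per kb, the level of Rps27l was 7.42, 7.35 and 6.91% of that of Rps27 in GFP and 6.19, 6.47 and 6.04% in Ezh2-Y726D, with no overlap between the groups, and the difference between the 2 decreases was not tested. The 4 members on the X chromosome, Rpl10, Rpl36a, Rpl39 and Rps4x, all fell, by 0.22 to 0.31.

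Processed pseudogenes of ribosomal protein genes can share reads with their parents. Rows with a ribosomal protein symbol and the suffix -ps numbered 160 in the table. They summed to 41.2 ± 0.856 CPM in GFP and 32.7 ± 1.57 CPM in Ezh2-Y726D, against 9741 and 8348 CPM for the members. Of the 18 tested, 1 was called lower, Rps16-ps2 (log2 fold change -0.67, adjusted P = 0.0130). The log2 fold change was below 0 for 15 of the 18, against 49.5% of all genes, with a median of -0.37. Rows so named were thus a small part of the signal in the table, and pseudogenes under other names were not counted. The treatment of reads with several positions is not given in the sources used here, so the reads shared with parents are not known.

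Correlations of the decrease with gene features were weak. Across the 76 members, Spearman's rho of the log2 fold change was 0.13 with exonic length, 0.09 with transcript length, -0.01 with GC content, -0.05 with CPM and -0.12 with CPM per kb in GFP. These are descriptions across genes of the same libraries. The members' transcripts were short, with a median of 834 bases against 2778 over all genes tested, and with each library's trend with exonic gene length removed 52 of 76 members fell and their median was -0.17. Members with and without the pyrimidine run shown above had medians of -0.21 (n = 30) and -0.23 (n = 26).

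Other genes of translation were examined to place the members. Ribosomal protein genes outside the name rule (Rpsa, Rack1, Fau, Rps3a1, Rps27rt, Rpl7l1 and Rpl22l1) had a median of -0.25, and 5 of 7 fell and none rose. The largest decreases among those called were those of Rpsa, from 328 ± 5.64 to 239 ± 6.87 CPM (log2 fold change -0.46, adjusted P = 4.30e-10), and Rack1, a scaffold on the small subunit (log2 fold change -0.29, adjusted P = 1.58e-06). Rpl7l1, which belongs to ribosome assembly, fell by 0.21 (adjusted P = 0.00517).

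Of 39 translation factors, 13 fell (33.3%, against 13.6% of all genes) and 2 rose (5.13%, against 13.9%), with a median of -0.10. Eef1a1, which brings aminoacyl-tRNA to the ribosome and whose mRNA carries a TOP motif, was at 2400, 2490 and 2371 CPM in GFP and 2001, 2117 and 2020 CPM in Ezh2-Y726D (log2 fold change -0.24, adjusted P = 1.24e-05). Eef2, the translocation factor, fell by 0.19 (adjusted P = 0.000287). The largest decreases in the list were those of Eif3b (-0.33, adjusted P = 6.35e-05) and Tpt1 (-0.29, adjusted P = 4.91e-05), whereas Eef1a2, the form of Eef1a1 used by mature neurons and muscle, rose by 0.14 (adjusted P = 0.0110) and Eif4a2 by 0.10 (adjusted P = 0.0471).

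Ribosome assembly genes moved less. Of 58, 9 fell and 1 rose, near the 13.6% that fell among all genes, with a median of -0.07. Ddx21, a helicase of rRNA transcription and processing, fell by 0.31 (adjusted P = 8.57e-05), Nop16 fell by 0.27 (adjusted P = 0.0334) and Snu13 rose by 0.18 (adjusted P = 0.0457). Npm1 fell by 0.14 (adjusted P = 0.0185), and Fbl, the rRNA methyltransferase, had a log2 fold change of -0.16 that was not called (adjusted P = 0.259). Of 77 mitochondrial ribosomal protein genes, which work in a separate ribosome, 2 fell, Mrpl51 and Mrps7, and none rose (median -0.07). Of 12 genes that host small nucleolar RNAs, Snhg15 and Zfas1 fell and none rose (median -0.06), and Gas5, another TOP transcript, had a log2 fold change of 0.03 (adjusted P = 0.708).

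**Figure D4:**
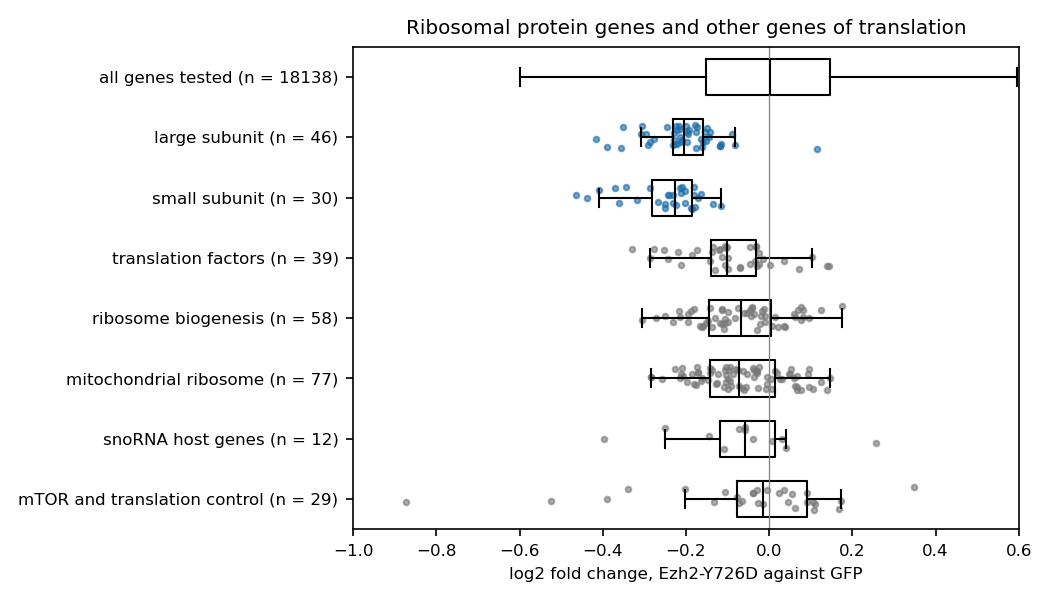
Log2 fold change, Ezh2-Y726D against GFP under TMM, of all genes tested, of the members by subunit and of 5 other lists of translation genes (points are genes, boxes span the quartiles with the median, and whiskers reach 1.5 times the box at most, with the axis ending at -1 and 0.6). The medians are -0.21 and -0.23 for the subunits and -0.10 to -0.02 for the other lists; with library totals all these medians are above 0, as is that of all genes (0.49).

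Among 29 regulators of translation, 3 fell and 3 rose (10.3% each), under the 13.6% and 13.9% of all genes, with a median of -0.02, so the list as a whole did not stand out and the values below are those of single genes. Mtor rose from 126 ± 2.89 to 143 ± 4.03 CPM (log2 fold change 0.17, adjusted P = 0.00167), while Rps6kb1, the S6 kinase, and Larp1 had log2 fold changes of -0.02 and -0.04 (adjusted P = 0.903 and 0.614). Rps6ka2, a kinase of the Erk pathway, rose by 0.35 (adjusted P = 2.15e-06). Myc, a transcription factor known to drive ribosome production, was at 5.65, 6.58 and 6.47 CPM in GFP and 3.20, 2.74 and 3.76 CPM in Ezh2-Y726D (log2 fold change -0.87, adjusted P = 5.20e-05). Its groups were well apart at a low level. Eif4ebp1, an inhibitor of the cap-binding factor, fell by 0.39 (adjusted P = 0.0366).

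The direction of the decrease depended on the scaling, and the number of members called also on other choices. With library totals, which count the rRNA gene, the median of all genes moved from 0.00 to 0.49 and that of the members from -0.21 to 0.29, which left the members 0.20 below all genes on the log2 scale, while 75 of 76 members lay below the median of all genes. In that fit 0 members were called in either direction, and 65 of all genes. With the 4 other scalings, 68 to 70 members fell, whereas 52 fell with the length correction and 55 in the fit without GFP replicate 1, of which 52 and 54 were among the 68.

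**Figure D5:**
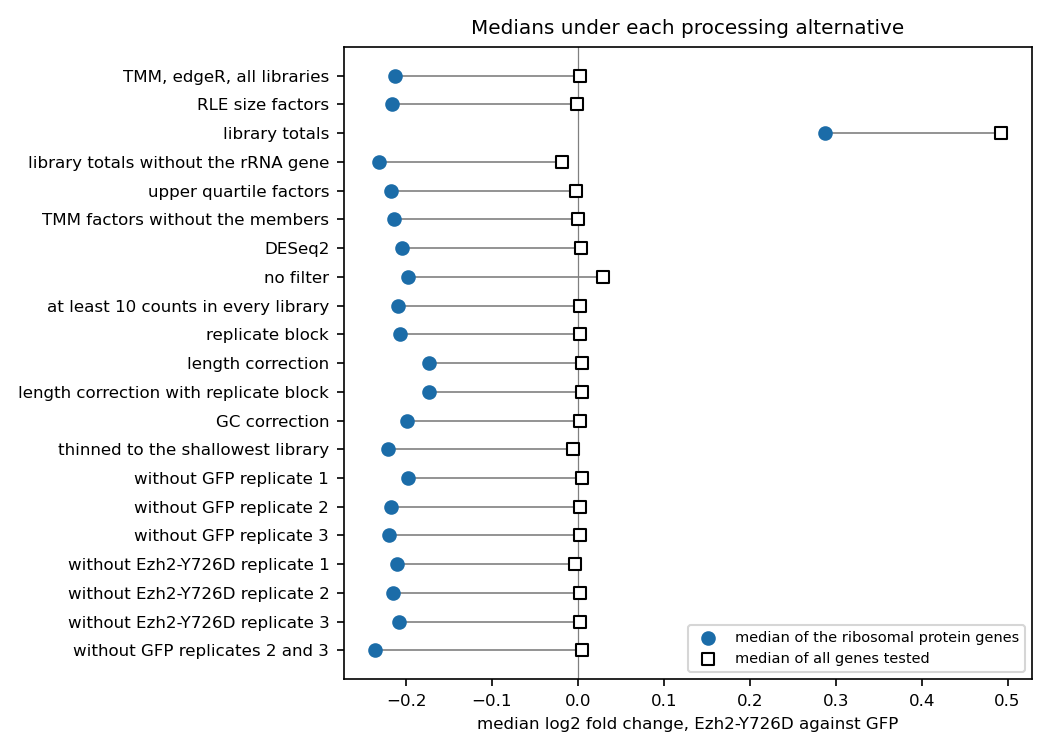
Median log2 fold change of the members (blue) and of all genes tested (open squares) under each processing alternative, 1 per line. The members lie 0.18 to 0.24 below all genes in every line, and both are above 0 with library totals.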

How the data were processed

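A strand-specific kit for total RNA was used for the libraries. The authors deposited 1 table of whole-number read counts per gene, without normalization, and all 6 columns were used (0 columns of other samples). The submitters' processing notes name STAR 2.7.0d and GRCm38; the counting tool and annotation are not given in the sources used here. Symbols came from a gene name table, coordinates, lengths and exonic overlaps from GENCODE vM21 on GRCm38 (32342 of 32371 identifiers found), and promoters from RefSeq (GRCm38.p6).

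CPM were computed from TMM-scaled libraries. Groups were compared with edgeR's quasi-likelihood test (edgeR 4.0.16, R 4.3.3). Genes were filtered by filterByExpr (minimum count 10, minimum total 15), and P values were adjusted by Benjamini-Hochberg over the 18138 genes left. SEs were derived from the log2 fold change and its F statistic (ratio of the former to the root of the latter). DESeq2 1.42.0 was an alternative. Sums were compared by exact permutation over the 20 splits. In counts simulated for this comparison on 18138 genes, 60% of genes made lower by 0.25 on the log2 scale and 72% of genes made higher by as much were called. The altered genes were drawn from all genes with a mean over 10 CPM, so these shares are not those for the members. The median SE was 0.0459 for the members and 0.0883 for all genes tested. The shallowest library held 4460732 counts without the rRNA gene, which limits the precision of its values. With all libraries thinned to that depth, 59 members fell.

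The members and lists were chosen with earlier results of these data known, and the groups by role and the ribosomal protein genes outside the name rule were listed after the values were seen. Named members are the 5 largest decreases, the P stalk, copies and their partners, Rps6, the 3 highest and 3 lowest per kb, members with exonic overlap over 10%, members of the role groups and those not called; Rps19, Rps16 and Rpl29 were named after their values were seen. Of the other lists of translation genes, the 2 largest changes called in each direction and 8 genes fixed by name are given, and marker lists are given by counts and sums. Some genes are not reported here by name and are left out of the plots that name genes; they remain in the counts, sums and medians over the members.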

Additional observations from a re-analysis of the deposited data

How the results depend on the processing

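Of the 68 members that fell, 45 were called under all 18 alternatives other than library totals and the fit with 1 GFP library (42 when that fit, which assumes its spread, is counted), and 48 in every fit that left out 1 library; no member rose under any setting. The count of members that fell was 68 with RLE, upper quartile or member-free TMM factors, 70 with library totals without the rRNA gene, 62 with DESeq2, 62 with no filter, 66 with the GC correction, 52 with the length correction, 59 with libraries thinned to the shallowest and 55 to 69 without 1 library each. Without GFP replicate 2, without Ezh2-Y726D replicate 1 and without GFP replicates 2 and 3 (added after seeing the data), the log2 fold change of Rpl24 turned to -0.044, -0.171 and -0.109; without 1 library each it ran from -0.171 to 0.61, and Rpl34 turned to 0.024 without GFP replicate 1; the cause was not tested. Library totals gave 0 members called, 65 genes called in all and a member median of 0.288, since the rRNA share enters the totals, and turned the named members Rps27l (0.048), Rps2 (0.054), Rplp0 (0.084), Rps9 (0.097), Rpl12 (0.112), Rps12 (0.145), Rplp2 (0.151), Rpl32 (0.156), Rpl39 (0.192), Rps10 (0.192), Rpl35 (0.203), Rpl19 (0.226), Rps25 (0.278), Rpl36a (0.279), Rplp1 (0.284), Rpl30 (0.284), Rps27 (0.286), Rpl5 (0.318), Rps15 (0.318), Rpl23a (0.323), Rpl13a (0.365), Rps6 (0.366) and Rpl31 (0.387). The share of all counts changed by 21.26%. The median was -0.232 with library totals without the rRNA gene, -0.173 with the length correction with or without the replicate block (-0.178 relative to all genes), and -0.236 (-0.24 relative) without GFP replicates 2 and 3. The rule of adjusted P under 0.05 and a fold over 1.5 called 0 members and 1455 genes in all. With the replicate block 69 members fell (median -0.207) and 59 with the length correction added. Same-numbered libraries correlated at 0.12, 0.044 and 0.039, each best with its own number. The labels give only this number, and whether such libraries share a preparation is not known. Low counts limit Rpl24, Rps10, Rpl36al and Rpl39l.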
